A study of Caenorhabditis elegans with 11 samples.

Results

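Alternative 3 prime splice sites are a choice between different ends of the same intron, made when the spliceosome joins a downstream exon. When the site nearer the donor is used, the exon is longer at its upstream edge. The splicing events described here are the 756 alternative 3 prime splice site events (A3SS) on autosomes whose listed exon is 200 bases or longer, out of 3096 listed events of all types and 1618 of this type. They were chosen from the listed events by event type, chromosome and exon length. This rule names no measured splicing value, but the list itself was already selected on such values, as described below. The choice was also made with earlier results of these data known. The other A3SS events are 697 on autosomes with exons under 200 bases and 165 on chromosome X.

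The study asked how removal of SACY-1, the C. elegans counterpart of the human helicase DDX41, changes transcripts and splicing. Young adults of 4 strains were compared: soma control (CA1200, 2 samples), soma-depleted (DG4703, 3), germline control (CA1352, 3) and germline-depleted (DG4700, 3). Every culture was kept on 2 mM auxin at 20 °C for the last 24 hours, after which poly(A)+ RNA of whole-worm lysates was sequenced. Each depleted strain carried sacy-1(tn1880), an allele that adds an auxin-inducible degron, GFP and myc to SACY-1. The plant receptor TIR1, which directs degron-tagged protein to degradation when auxin is present, came from ieSi57 under the eft-3 promoter in both soma strains and from ieSi64 under the gld-1 promoter in both germline strains. Controls carried the TIR1 transgene and unc-119(ed3) but no tagged SACY-1. Tag and depletion therefore differ together and cannot be told apart. Samples were separate cultures started from 60000 larvae each, so every value is a mean over many animals. The words soma and germline name where TIR1 was expressed, not a tissue that was isolated. A change in the share of cells and a change within cells cannot be told apart in such lysates.

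Worm introns end in a short conserved sequence read by the 2 subunits of the U2AF factor, encoded by uaf-1 and uaf-2, and they mostly lack the long pyrimidine tract and branch point consensus of vertebrate introns. SACY-1 and DDX41 are helicases found with the spliceosome at its catalytic stage, when the acceptor is chosen and the exons are joined. Pairs of acceptors a few bases apart are common in worm genes, and the use of the upstream site of such pairs is known to differ between germline and somatic tissue.

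The tables hold no value per sample. For each event the authors' deposited table gives 1 signed inclusion level difference, on a scale from -1 to 1, and 1 false discovery rate q-value per comparison. An event is called here when q is under 0.05. The direction of subtraction is not given in the files or labels, and every sign below is the deposited one. The spread between replicates and the read depth per event are unknown. There were 3 comparisons: soma, germline, and sperm and oocyte. The last was between sperm-producing and oocyte-producing worms, with libraries of an earlier study by other workers. All 3096 listed events have a q under 0.05 in at least 1 of the 3 comparisons. Shares of called events are therefore shares of an already selected list.

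The splice sites of a pair mostly lay a few bases apart. Set against the Ensembl release 115 annotation, 565 of the 756 events had an annotated exon that shares the downstream edge of the listed exon and starts further in. The distance between the upstream and downstream 3 prime sites had a median of 9 bases over these 565 events, with quartiles of 6 and 12. Of these pairs, 445 (78.8%) were 18 bases or fewer apart, 25 were 19 to 100 bases apart and 95 (16.8%) were further apart. The largest distance was 15077 bases. These are called adjacent, intermediate and distant pairs below, a division made after the distances were seen.

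The most frequent distance was 6 bases, in 183 events, followed by 9 bases in 106, while 7 and 8 bases together had 71. A distance of 12 bases was found in 29 events, 10 or 11 bases in 28, and 3 bases in 6. Among the 445 adjacent pairs, 330 (74.2%) were a multiple of 3 apart, which keeps the reading frame in coding sequence. For distant pairs it was 44 of 95 (46.3%). In the autosomal A3SS events with shorter exons, 589 of 614 pairs (95.9%) were adjacent and 1 was distant. An exon under 200 bases cannot hold a pair further apart than its own length, so the length rule itself bears on that contrast.

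**Figure D1:**
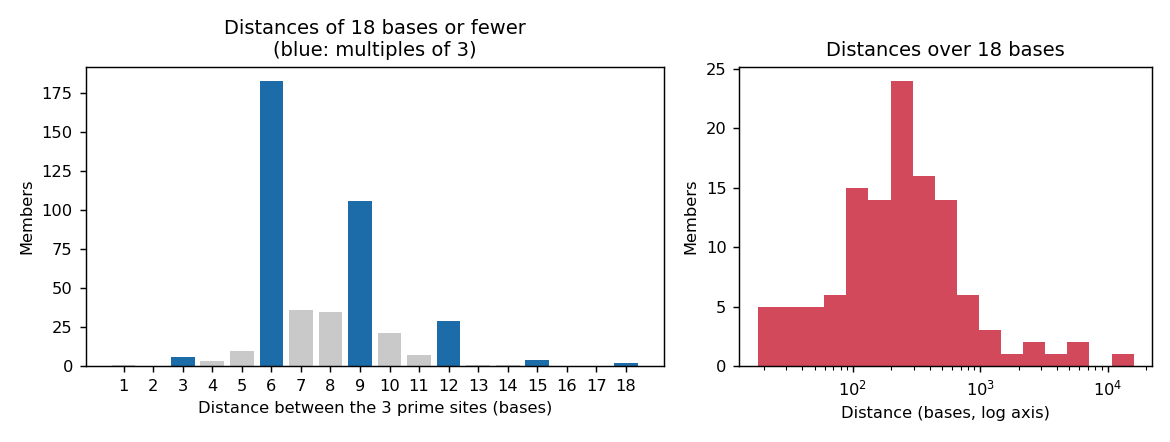
Distance in bases between the upstream 3 prime site of the listed exon and the nearest annotated downstream site, counted over 565 events. Left, bars for 1 to 18 bases, with multiples of 3 in blue; 6 bases (183 events) and 9 bases (106 events) stand above their neighbours. Right, a histogram on a log axis of the 120 pairs over 18 bases apart.

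Where annotation could tell, the listed exon was mostly the longer form. An annotated partner within 18 bases lay downstream alone for 439 events and upstream alone for 2, with partners on both sides for 6. For 292 events neither side had one, and this comparison says nothing of them. Exon lengths ran from 200 to 19455 bases with a median of 386, and 49 exceeded 1000. The upstream site of 381 events lay in annotated coding sequence, of 302 between coding segments of the gene, of 30 in a 5 prime UTR and of 2 in a 3 prime UTR. It was itself an annotated acceptor for 411 of the 739 events that could be placed on a strand. Where the listed exon matched an annotated exon exactly (304 events), it was internal to its transcripts in 285 and the last exon in 16. The shortest annotated intron that ends at the upstream site had a median length of 88 bases over 411 events (quartiles 44 and 390). By class it was 64 over 215 adjacent pairs and 166 over 52 distant pairs. The median was 50 over 335 of the shorter-exon events. It was 68 over 96860 annotated autosomal introns, a count that keeps every intron of an acceptor and not the shortest alone.

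In the soma comparison most called events had a negative difference, and adjacent pairs accounted for few of the positive ones. Of 752 events with a soma q-value, 431 were called (57.3%), where 53.1% of all listed events and 61.9% of all A3SS events were called. Of the 431, 385 were negative and 46 positive in the authors' deposited table (41.2% and 11.8% of all listed events, 57.3% and 4.60% of all A3SS events), which is 89.3% negative against 77.7% over all listed events, 92.6% over all A3SS events and 95.6% over those with shorter autosomal exons. The median difference of the called events was -0.158 (quartiles -0.255 and -0.062), against -0.127 over all called events of the series. Differences of at least 0.1 in size were listed for 308 of the 431 and of at least 0.5 for 19. By chromosome, the share of called soma events with a negative difference ran from 81.9% of 72 on IV to 95.2% of 84 on III.

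The share of negative signs went with the distance between sites. Of 253 called adjacent pairs, 245 were negative in the soma (96.8%, 95% Wilson interval 93.9 to 98.4, counting error only), with a median of -0.172. Of 51 called distant pairs, 32 were negative (62.7%, 49 to 74.7) and the median was -0.052. Of 11 called intermediate pairs, 9 were negative (81.8%), with a median of -0.24, more negative than that of adjacent pairs. Of 116 called events with no annotated partner, 99 were negative (85.3%), with a median of -0.169. The high share is not particular to long exons: adjacent pairs of the shorter autosomal exons were negative in 352 of 364 called soma events (96.7%). Adjacent pairs a multiple of 3 apart had a median soma difference of -0.183 over 185 called events, and the other adjacent pairs -0.105 over 68. By distance, the medians were -0.197 at 6 bases (93 called), -0.175 at 9 (69), -0.175 at 12 (16) and -0.107 at 3 (3). Off the multiples of 3 they were -0.135 at 7 bases (19), -0.152 at 8 (23), -0.064 at 10 (14), -0.289 at 11 (4) and -0.042 at 5 (6). The most negative of these medians was thus at 11 bases, not a multiple of 3, over 4 events. The Wilson intervals here and below treat events as independent, although all events of a comparison come from the same few libraries. Of the 756 events, 183 lie in 80 StringTie genes with more than 1 of them, and 57 lie in 26 loci where members overlap. The intervals therefore do not measure spread between replicates.

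**Figure D2:**
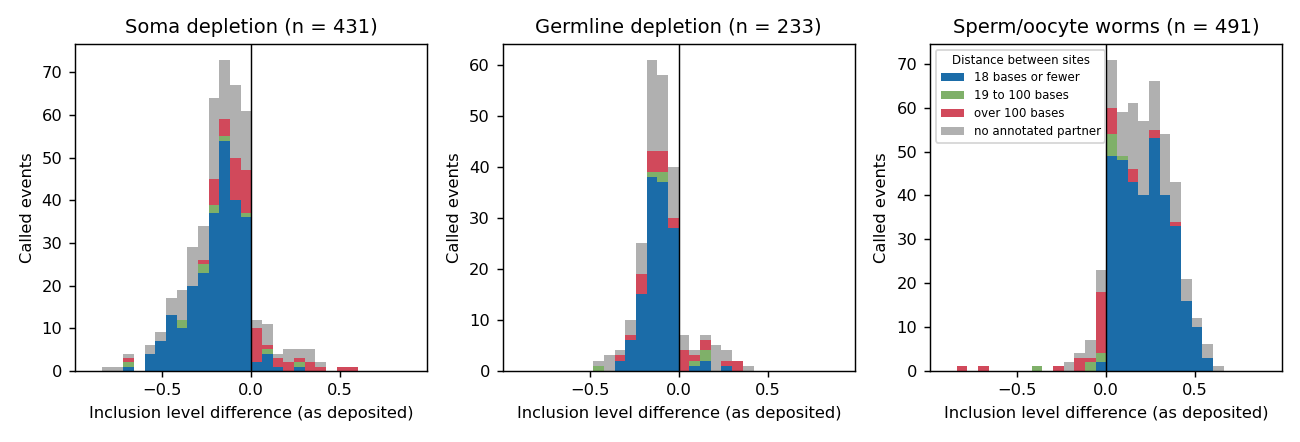
Histograms of the inclusion level difference, as deposited, of called events in the soma (431), germline (233) and sperm and oocyte (491) comparisons, stacked by the distance between the 3 prime sites. Adjacent pairs (blue) are almost all left of 0 in both depletion comparisons and right of 0 in the third, while distant pairs (red) lie on both sides.

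The largest negative soma differences were in genes of varied roles. The exon of faah-6, of the fatty acid amide hydrolase family (chromosome III, 11655932 to 11656385, WBcel235/ce11), had -0.802 in the soma and 0.021 in the germline in the authors' deposited table (q = 2.1e-10 and 0.886). It was followed by an exon at which M01A8.1 overlaps clip-1, a gene for a microtubule plus-end linker, with -0.742 (q listed as 0) in the authors' deposited table. For F22G12.5, whose sites are 6 bases apart in coding sequence (chromosome I, 13168322 to 13168707), the authors' deposited table gave -0.704 (q = 0.00122). The nuclear hormone receptor gene nhr-76 (chromosome IV, 633694 to 633954) had -0.673 in the soma and 0.027 in the germline in the authors' deposited table (q = 3.5e-13 and 1). None of these 4 was called in the germline.

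A chromatin gene and a long non-coding RNA were also in this group. For chd-7, which encodes a chromodomain helicase (chromosome I, 4696677 to 4697198, sites 9 bases apart), the soma difference was -0.587 (q = 5.9e-08) in the authors' deposited table. In linc-116, a long intergenic non-coding RNA, it was -0.564 (q = 9.3e-06) in the authors' deposited table. For sop-2, needed for repression of Hox genes (chromosome II, 12342630 to 12343505, sites 6 bases apart), the authors' deposited table gave -0.555 in the soma and -0.19 in the germline (q = 4.9e-06 and 0.0318). The Rab GTPase activating protein gene tbc-14, with sites 6 bases apart (chromosome II, 13445024 to 13445256), had -0.554 in the soma and -0.012 in the germline (q listed as 0 and 0.962) in the authors' deposited table. The 10 largest were completed by Y53F4B.12 at -0.677, a distant pair 478 bases apart, and F45F2.10 at -0.667, in a 5 prime UTR with sites 25 bases apart, in the authors' deposited table.

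None of the 5 largest positive soma differences was at an adjacent pair. The largest, 0.563 in the soma and 0.322 in the germline (q = 0.00249 and 0.0288), was in rme-8, for a J-domain protein of endocytic traffic (chromosome I, 8085992 to 8086586, sites 184 bases apart), in the authors' deposited table. The cytochrome P450 gene cyp-33E1 (chromosome IV, 8645903 to 8646579, sites 539 bases apart) had 0.496 in the soma (q = 7.7e-06) in the authors' deposited table. The gene dur-1, with sites 714 bases apart, had 0.377 (q = 1.6e-06) in the authors' deposited table. F49D11.6 at 0.399 and T28F3.5 at 0.357 had no annotated partner site, and both were called in the soma alone of the 2 depletions in the authors' deposited table. Of these 5 events, rme-8 was the one called in the germline too.

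Germline depletion called fewer events, again mostly negative. Of 742 events with a germline q-value, 233 were called (31.4%), where 26.5% of all listed events and 27.6% of all A3SS events were called. Of them, 203 were negative and 30 positive in the authors' deposited table (18.3% and 8.26% of all listed events, 23.6% and 3.91% of all A3SS events), or 87.1% negative against 68.8% over all listed events and 86.6% over the shorter autosomal exons. The median difference was -0.106 (quartiles -0.162 and -0.046), the lowest -0.475 and the highest 0.364. No called germline difference reached 0.5 in size. Adjacent pairs were negative in 126 of 130 called events (96.9%, Wilson interval 92.4 to 98.8) and distant pairs in 16 of 26 (61.5%, 42.5 to 77.6). Among adjacent pairs, multiples of 3 had a median germline difference of -0.129 over 98 called events and the others -0.0595 over 32.

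The largest germline values were in a gene known by its sequence name on chromosome III. C06E1.11 held 3 of the 10 most negative events, which share the exon end at 8615895 and start at 8616421, 8616356 and 8616244 on the minus strand. Their germline differences in the authors' deposited table were -0.475, -0.37 and -0.384 (q = 1.0e-05, 1.7e-05 and 0.00656). In the soma they were -0.398, -0.285 and -0.189 in the authors' deposited table, the last one not called (q = 0.301). As overlapping exons of 1 gene they share reads and are not separate observations. R07H5.9 had -0.427 in the germline and -0.005 in the soma (q = 0.0372 and 1) in the authors' deposited table.

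The other 6 of the 10 included genes for nuclear proteins. The bZIP transcription factor gene zip-5 (chromosome V, 13265789 to 13268770) had -0.386 in the germline and -0.188 in the soma (q = 4.8e-04 and 0.0419) in the authors' deposited table. In attf-3, for an AT hook protein, sites 9 bases apart had -0.318 in the germline (q = 0.0208) in the authors' deposited table. For trr-1, whose product resembles the TRRAP subunit of histone acetyltransferase complexes, sites 6 bases apart (chromosome II, 11668133 to 11668751) had -0.298 (q = 0.00486) in the authors' deposited table. Y95D11A.3, with sites 9 bases apart on chromosome I, had -0.302 in the germline (q listed as 0) and -0.078 in the soma (q = 0.053) in the authors' deposited table. The other 2 of the 10 were C25G4.7 at -0.333 and an unnamed StringTie gene at -0.318, which had soma differences of 0.071 and 0.036 with q of 0.872 and 1, in the authors' deposited table. Positive germline differences were led by E02H9.6 at 0.364 (q = 2.7e-04), rme-8 at 0.322, F40G9.15 at 0.301 (q = 0.00292) and T05A7.13 at 0.287 (q = 4.3e-05) in the authors' deposited table. An exon at which R10E8.7 overlaps R10E8.3 followed, with 0.266 in the germline and 0.208 in the soma (q = 9.5e-04 and 0.0305), in the authors' deposited table. The pairs of rme-8, F40G9.15 and T05A7.13 are distant, at 184, 341 and 234 bases, and E02H9.6 could not be placed on a strand.

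**Figure D3:**
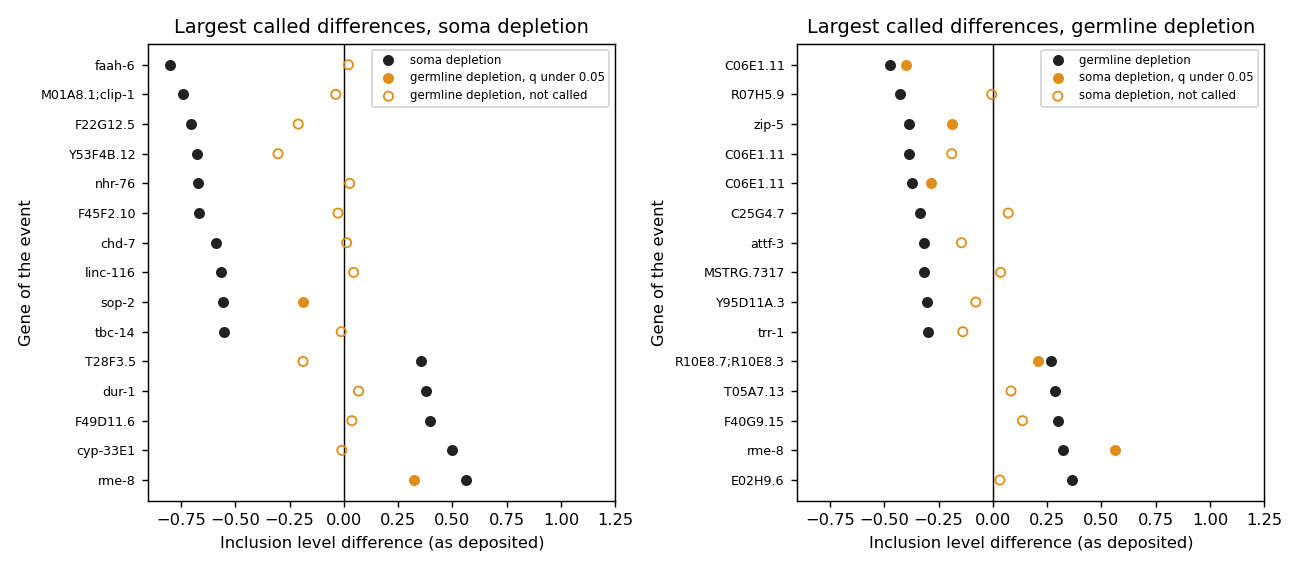
Inclusion level difference, as deposited, of the 10 most negative and 5 most positive called events in the soma (left) and germline (right), with the gene of each event on the vertical axis. Black points are the depletion that ranked the events and orange points the other depletion, filled where called. Of the 15 soma events, sop-2 and rme-8 were also called in the germline.

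The soma and germline comparisons share no samples. Events called in both numbered 112, which is 26% of the 431 soma calls and 48.1% of the 233 germline calls. Over all A3SS events the same shares were 20.7% and 47.1%, and over all listed events 14.7% and 29.6%. Of the 740 events with both q-values, 15.1% were called in both, against 7.94% of all listed events and 13.0% of all A3SS events. The sign was the same for 106 of the 112 in the authors' deposited table, 100 negative and 6 positive. Over all listed events it was 207 of 236, and over all A3SS events 191 of 206. The median soma difference of the 112 was -0.151 and the median germline difference -0.111, and the soma difference was the larger in size for 70. Among the 69 adjacent pairs called in both, 67 had the same sign. Across the 740 events with both values, Pearson's r was 0.203 and Spearman's rank correlation 0.232, a description over events that come from the same libraries.

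Ranked by the mean size of the soma and germline differences, the first 10 events called in both were in rme-8, sop-2, C06E1.11 and zip-5, given above, and in 5 other genes. In hpo-11 (chromosome I, 7142982 to 7143241) the differences were -0.483 in the soma and -0.221 in the germline (q listed as 0 and 1.0e-04) in the authors' deposited table. For pqn-87, which encodes a glutamine- and asparagine-rich protein, they were -0.45 and -0.17 (q listed as 0 and 1.3e-05) in the authors' deposited table. T28C6.7, with sites 12 bases apart, had -0.531 and -0.07, and F56C9.10, with sites 9 bases apart, had -0.486 and -0.105 in the authors' deposited table. For ssl-1, a SWI2/SNF2-type chromatin remodelling ATPase, the soma and germline differences were -0.329 and -0.248 (q = 8.2e-07 and 3.5e-04) in the authors' deposited table. All 5 of these were also called, with a positive difference, in the sperm and oocyte comparison.

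The 6 events called in both with opposite signs were 2 distant pairs, 2 adjacent pairs and 2 events with no annotated partner. T09E11.11 (sites 129 bases apart) had -0.212 in the soma and 0.099 in the germline (q = 1.1e-11 and 2.7e-04) in the authors' deposited table. For cank-26 the values were -0.188 and 0.2, and for an exon of F08F8.9 that overlaps F08F8.10 they were -0.231 and 0.12, in the authors' deposited table. M01H9.3 (-0.021 and 0.022), the lipid droplet gene lid-1 (0.017 and -0.017) and the mitochondrial aldehyde dehydrogenase gene alh-6 (0.048 and -0.035) differed by under 0.05 in each depletion in the authors' deposited table. The last 2 were the adjacent pairs, with sites 5 and 8 bases apart.

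Events called in 1 depletion and not in the other had medians near 0 in the other. Choosing events that were not called there itself favours small values. Of 319 events called in the soma and not in the germline, the 309 with a germline value had a median of -0.158 in the soma and -0.018 in the germline, with the same sign in 213. Of 121 called in the germline and not in the soma, the 119 with a soma value had medians of -0.101 and -0.016, with the same sign in 77. Whether the differences themselves differ between the tissues could not be tested from values without replicates.

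The sperm and oocyte comparison had mostly the opposite sign. Of 658 events with a q-value, 491 were called (74.6%), where 65.0% of all listed events and 70.5% of all A3SS events were called. The sign was positive for 451 and negative for 40 in the authors' deposited table (48.4% and 16.6% of all listed events, 66.2% and 4.31% of all A3SS events), or 8.15% negative against 25.6% over all listed events and 3.64% over the shorter autosomal exons. The median difference was 0.196 (quartiles 0.0705 and 0.315). Of 337 called adjacent pairs, 335 were positive, with a median of 0.214. Of 33 called distant pairs, 12 were positive and 21 negative, with a median of -0.022. Adjacent pairs a multiple of 3 apart had a median of 0.25 over 269 called events, and the other adjacent pairs 0.085 over 68. By distance, the medians at 6, 9 and 12 bases were 0.235, 0.283 and 0.289, and at 7, 8 and 10 bases 0.083, 0.15 and 0.0465.

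**Figure D4:**
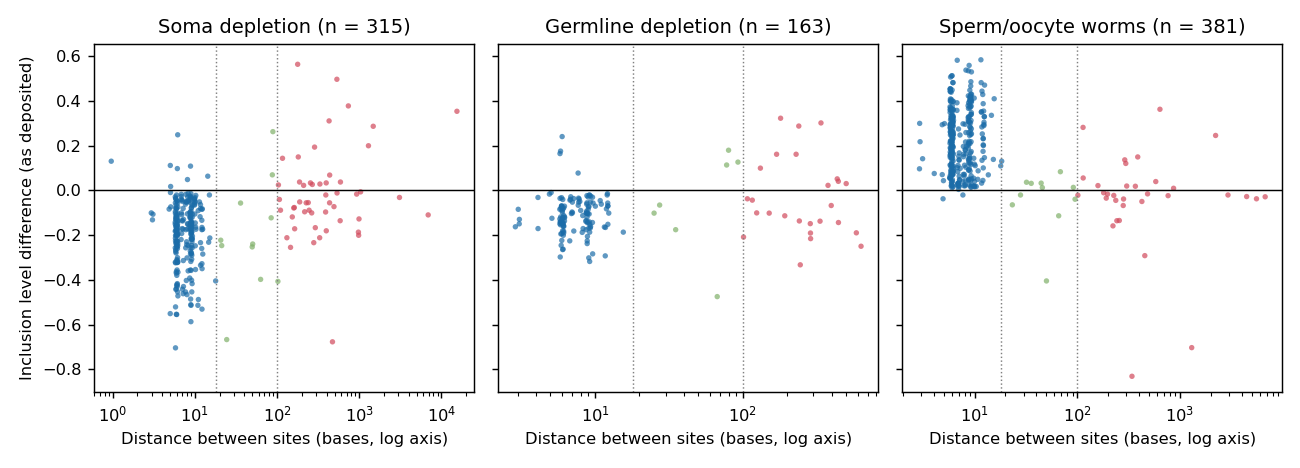
Inclusion level difference, as deposited, against the distance in bases between the 3 prime sites (log axis, points spread slightly sideways) for called events with an annotated partner in the soma, germline and sperm and oocyte comparisons. Colours mark adjacent (blue), intermediate (green) and distant (red) pairs, and dotted lines 18 and 100 bases. Left of the first line nearly all points are negative in both depletions and positive in the third; right of the second line both signs occur.

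Of 226 events called in the soma and in the sperm and oocyte comparison, 218 (96.5%) had opposite signs in the authors' deposited table, against 93.5% of 510 over all listed events and 97% of 461 over all A3SS events. For the germline it was 149 of 152 (98%), against 91.6% of 332 and 96.8% of 282. The share was thus close to that of A3SS events in general. In all, 91 events were called in all 3 comparisons, 184 in the soma alone, 60 in the germline alone and 204 in the sperm and oocyte comparison alone. The medians of the 226 were -0.18 in the soma and 0.251 in the third comparison. Spearman's rank correlation with the sperm and oocyte difference was -0.469 over 655 events for the soma and -0.412 over 654 for the germline, both as descriptions across events. In the authors' deposited table of expression, 18 of 82 genes with names of the sperm families msp, nspd, spe, sss and ssp were listed. All 18 were higher after soma depletion and 4 of them after germline depletion, at an adjusted p under 0.05 in that table. Among all 882 listed genes, 59.5% had such a p in the soma and 62.9% in the germline, in either direction. Genes were listed there for a change, so the 18 were already selected for one. Their summed mean level was 50.8 FPKM without and 148.3 with soma depletion, and 57.7 without and 93.6 with germline depletion, in the authors' deposited table, with none at 0 in any group. Of 16 oocyte genes looked up, including oma-1, puf-5 and rme-2, none was listed. The part of germ cell content in the splicing differences was not tested.

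**Figure D5:**
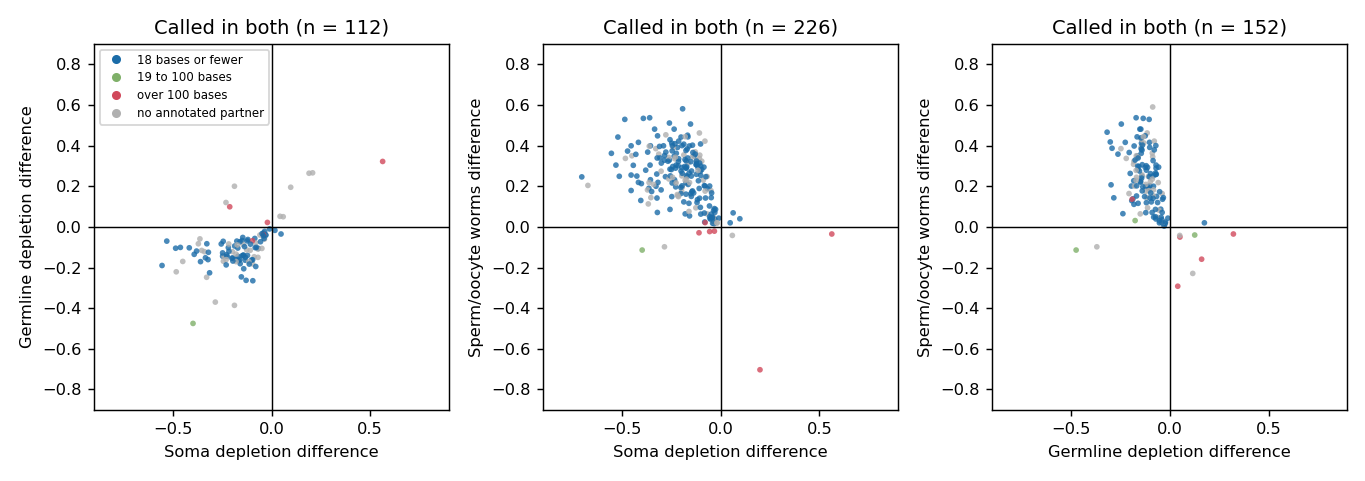
Inclusion level differences, as deposited, of events called in each pair of comparisons: soma with germline (112 events), soma with sperm and oocyte (226) and germline with sperm and oocyte (152). Points are coloured by the distance between sites. The first panel holds 106 points in the quadrants of equal sign, while 218 and 149 points of the other panels lie in the quadrants of opposite sign.

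The largest sperm and oocyte differences in the negative direction were at distant sites in 3 of 5 events. For gcy-12, a receptor guanylyl cyclase gene (chromosome II, 5317137 to 5317715, sites 332 bases apart), the difference was -0.831 (q listed as 0) in the authors' deposited table, against -0.006 in the soma and 0.004 in the germline. The kinesin genes klp-3 and zen-4 had -0.405 and -0.292, and the globin gene glb-1 had -0.234, in the authors' deposited table. The zen-4 exon was also called in the germline, with 0.04 (q = 0.0323), in the authors' deposited table. Positive differences reached 0.618 in scly-1, followed by 0.59 at K11H3.4, where the annotation has a non-coding gene, 0.583 in trr-1 (sites 12 bases apart) and 0.581 in cil-1, a phosphoinositide phosphatase gene with sites 7 bases apart, in the authors' deposited table. An exon at which Y110A2AL.20 overlaps the ubiquitin-conjugating enzyme gene ubc-26 had 0.578 in the authors' deposited table. Of the positive 5, cil-1 was called in the soma, at -0.193 (q = 2.2e-07) in the authors' deposited table.

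Several genes held a series of these exons. The gene trr-1 had 6, spread over 11661579 to 11674319 on chromosome II. All 6 were called in the sperm and oocyte comparison, with differences from 0.207 to 0.583 in the authors' deposited table. Their germline differences ran from -0.298 to -0.031 in the authors' deposited table, with 1 called, and in the soma 1 was called, at -0.358 (q = 0.0199). T24B8.7 had 4 adjacent pairs, with soma differences of -0.308, -0.136, -0.321 and -0.255 in the authors' deposited table, of which those at -0.308 and -0.321 were called. For pqn-87 the authors' deposited table gave soma differences of -0.45 and -0.392 at 2 called exons and -0.017 and -0.063 at 2 overlapping exons that were not called.

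Other multiple events were overlapping choices at 1 exon or crossed gene borders. The nuclear hormone receptor gene nhr-179 (chromosome V) had 5 events that share 1 exon edge at 1616395, with soma differences from -0.247 to -0.22 and germline differences from -0.027 to -0.012 in the authors' deposited table. All 5 were called in the soma and none in the germline. A further StringTie model joined F46B6.5 with an exon at which F46B6.12 overlaps smg-4, a gene of nonsense-mediated decay. The smg-4 exon had -0.115 in the soma and -0.171 in the germline (q = 6.2e-05 and 2.3e-08), and a pair 3 bases apart in F46B6.5 had -0.107 and -0.085 (q = 0.00705 and 0.0248), in the authors' deposited table. Of the other 2 exons of F46B6.5, a distant pair was called in the germline at -0.101 (q = 0.0409) and an overlapping pair 6 bases apart was called in neither depletion, at -0.053 and -0.075, in the authors' deposited table. The model with the 3 exons of C06E1.11 also held an exon of polk-1, a DNA polymerase kappa gene, which was called in neither depletion.

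Genes were also grouped by role with 7 partial lists of names. Each count below covers the names of its list, not all genes of that role. The kinase and signalling list (68 names) had 11 events in 7 genes. In the soma 8 of the 11 were called, all negative, with a median of -0.257, and in the sperm and oocyte comparison 10 were called, all positive, with a median of 0.292. Over all 756 events, 57.3% of those with a q-value were called in the soma and 74.6% in the third comparison. Of those calls, 89.3% and 8.15% were negative, so most events of any kind here share these signs. The growth kinase TOR gene let-363 (chromosome I, 5259296 to 5259858, sites 9 bases apart) had -0.454 in the soma and 0.399 in the third comparison (q = 2.8e-10 and listed as 0) in the authors' deposited table. The chloride-sensing kinase gene wnk-1 had -0.43 and -0.257 in the soma at 2 exons in the authors' deposited table (q = 1.6e-12 and 0.00103). For max-2, a p21-activated kinase gene, the soma difference was -0.29, and for par-4, the LKB1 counterpart, -0.257, in the authors' deposited table. In the germline 1 of the 11 was called, and it was positive. Of all the events with a germline q-value, 31.4% were called, and 87.1% of those calls were negative. Events in the kinase genes cdk-8 and kin-18 were not among the 11. Both were called in the germline, at -0.164 and -0.071 (q = 1.3e-04 and 0.00984), in the authors' deposited table. In the soma cdk-8 was called at -0.134 (q = 8.5e-04) and kin-18 was not called, in the authors' deposited table.

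The splicing factor list (85 names) had 5 events in 4 genes, all called in the soma, 4 negative and 1 positive, with a median of -0.089. Of all the events with a soma q-value, 57.3% were called. Events in hrp-2, hrpk-1 and luc-7L were not among the 5, and that of hrp-2 was not called in the soma (q = 0.389). Those of hrpk-1 and luc-7L were called in the soma, at -0.056 (q = 0.049) and 0.028 (q = 0.0386), in the authors' deposited table. In rbm-25, a splicing regulator gene, sites 6 bases apart (chromosome V, 12502564 to 12503086) had -0.322 in the soma, -0.161 in the germline and 0.339 in the third comparison (q listed as 0, 8.6e-06 and listed as 0) in the authors' deposited table. A distant pair in the same gene had -0.201 in the soma (q = 0.00485) in the authors' deposited table. The SR protein genes rsp-7 and rsp-5 had soma differences of -0.089 (q = 0.00683) and 0.026 (q = 0.0396), and rbm-5 had -0.089 (q = 0.0121), all at distant pairs, in the authors' deposited table.

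The translation list (49 names) had 4 events in 3 genes, with 1 called in the soma and 2 in the germline, all negative. It did not count events in eif-3.L and rars-1, called in the soma at -0.096 and -0.056 in the authors' deposited table. The cap-binding protein gene ife-3, with sites 3 bases apart (chromosome V, 7158 to 7393), had -0.101 in the soma, -0.163 in the germline and 0.299 in the third comparison (q = 0.00427, 9.9e-08 and listed as 0) in the authors' deposited table. For larp-1 the germline difference was -0.036 (q = 0.0348) in the authors' deposited table. The germline and chromatin list (71 names) had 8 events in 8 genes. In the soma 3 were called, all negative, and in the germline 3, 1 negative and 2 positive. Genes named above such as chd-7, ssl-1 and trr-1 are not among the 8. Called in the soma were swsn-1 (-0.22), of the SWI/SNF complex, the acetyltransferase gene cbp-1 (-0.123) and the methyltransferase gene set-16 (-0.115) in the authors' deposited table. The histone demethylase gene jmjd-1.2, with sites 96 bases apart, had 0.126 in the germline (q = 0.00827) in the authors' deposited table.

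The neuronal and channel list (66 names) had 5 events in 4 genes. The chloride channel gene clh-3 had soma differences of -0.283 and -0.232 at 2 exons (q = 2.4e-05 and 0.00223), and unc-13, needed for synaptic vesicle priming, had -0.142 in the germline (q = 0.0288), in the authors' deposited table. An exon at which unc-64, a syntaxin gene, overlaps set-25 had 0.04 in the germline (q = 2.5e-04) in the authors' deposited table, and it stands in both lists. The muscle list (63 names) had 4 events in 4 genes. Of these, unc-105, a degenerin channel gene, was called in the soma at -0.253 (q = 0.0466) and alp-1, for a Z-line protein, in the germline at -0.114 (q = 0.00508) in the authors' deposited table. The cuticle and matrix list had 1 event, in the protease inhibitor gene mlt-11, called in the soma at 0.193 (q = 0.0453) in the authors' deposited table. No pattern particular to a list can be read from counts this small.

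Few of the genes that hold these exons were listed for a change in expression. The 756 events overlapped 690 annotated genes, and 18 of them (2.61%) were among the 882 genes of the authors' deposited table of expression. For genes of any A3SS event it was 32 of 1371 (2.33%). Of the 18, 9 had a soma adjusted p under 0.05, 4 higher and 5 lower, and 11 a germline adjusted p under 0.05, 7 higher and 4 lower. Among all 882 listed genes, 59.5% were called in the soma and 62.9% in the germline.

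An exon with a called, negative soma difference overlapped each of the 4 genes higher after soma depletion. Of all 431 called soma events, 89.3% were negative, so this sign is the usual one. For dip-2 (disco-interacting protein) the group means were 6.22 FPKM in soma controls and 15.8 in soma-depleted worms (log2 fold change 1.34, the authors' adjusted p = 1.2e-08), and 1 of its 2 exons had a soma difference of -0.25 (q = 3.8e-05), in the authors' deposited table. The ubiquitin ligase gene wwp-1 had 28.8 and 57.7 FPKM (log2 fold change 1.00, adjusted p = 3.3e-07), with a soma difference of -0.102 (q = 0.00207), in the authors' deposited table. Y105E8A.28 had a log2 fold change of 1.12 and a soma difference of -0.404 (q = 0.00223) in the authors' deposited table. For the long non-coding RNA linc-37 the log2 fold change was 1.35, and an exon at which it overlaps K02F3.15 and zip-2 had -0.187 (q = 1.3e-04), in the authors' deposited table, so that exon cannot be given to 1 of these genes. The chondroitin hydrolase gene chhy-1 was lower, with 9.29 and 4.6 FPKM (log2 fold change -1.01, adjusted p = 4.6e-09), and its exon (chromosome II, 8616064 to 8616322) had -0.403 in the soma (q = 1.0e-11) in the authors' deposited table. Also lower was asp-8 (log2 fold change -1.32), with a called soma difference of -0.132 (q = 1.4e-06), in the authors' deposited table. K08E7.5 was lower too (log2 fold change -1.13), and its exon, at -0.067, was not called in the soma. Y37H2A.13 and Y37H2A.14, which overlap at 1 exon, were lower in the soma (log2 fold change -2.33 and -2.16), with a positive soma difference of 0.324 (q = 0.0045), in the authors' deposited table. Mean levels of Y54G2A.36 were 36.2 FPKM without and 192.2 with germline depletion, with germline differences of -0.143 and -0.102 at 2 overlapping exons (q = 2.2e-07 and 1.9e-04), in the authors' deposited table. T05A7.13, named above for its positive germline difference, had 5.06 and 17.4 FPKM in the germline groups in the authors' deposited table.

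Of the 7 exons of exactly 200 bases, 3 were in Y48G1C.8, lst-6 and pde-2, with sites 15, 6 and 9 bases apart and soma differences of -0.09, -0.267 and 0.027 in the authors' deposited table. The 3 of 199 bases were in fcp-1, rev-1 and wapl-1, with sites 11, 8 and 6 bases apart and soma differences of -0.001, 0.023 and -0.077 in the authors' deposited table. Across lengths, the negative share of called soma events was 92% of 138 at 200 to under 300 bases, 91% of 156 at 300 to under 500, 86.2% of 109 at 500 to under 1000, and 78.6% of 28 from 1000 bases on. The median exon length was 490 bases for distant and 329 for adjacent pairs.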

How the data were processed

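Poly(A)+ RNA of 11 samples in 4 groups was sequenced. The authors used STAR 2.7.2a, SAMtools 1.7, DESeq2 1.26.0, cutadapt 1.18 and Trim Galore 0.6.0 with the build WBcel235/ce11, per the submitters' processing notes, which give no role or order here. For the splicing caller, the name was not given in the sources used here. Replicates 1 and 3 of the soma control were available.

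The authors deposited a table of splicing events with q-values and inclusion level differences, with StringTie gene models per the file headers, and a table of genes with group mean FPKM, a log2 fold change and an adjusted p-value (Benjamini-Hochberg) per depletion. Neither holds values per sample, so no model was fitted and no replicate error can be given.

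Members and gene lists were chosen with earlier results of these data known. Listed starts count from 0 and are given here counted from 1. Strand came from an exactly matching exon of Ensembl release 115 (304 events), the named gene (395) or exon edges (40), and 17 events had none. The distance runs to the nearest annotated exon that shares the downstream edge, which may not be the site the authors' caller paired. The placement was tested on simulated data. Named events were the 10 most negative and 5 most positive per depletion, 5 of each sign for sperm and oocyte, events called in both depletions (up to 10, and all with opposite signs), up to 5 per list, genes with 4 or more events and 3 on each side of 200 bases, of which 1 event is not reported here. Bases at the splice sites were not analysed here. Python 3.11.15, pandas 2.3.3, numpy 2.4.6, scipy 1.17.1 and matplotlib 3.10.9 were used.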

Additional observations from a re-analysis of the deposited data

How the results depend on the processing

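No paired analysis was possible because the tables hold no value per sample, and for the same reason no replicate could be left out; the planned analysis of bases at the acceptors was not run. Of 78 values recomputed under alternatives, 49 stayed within the interval of the main value (within 1.5 times for a count) and 29 did not. No median difference among them changed sign, while counts, shares and distances cannot change sign. The distance classes and their alternatives were chosen after seeing the data. At q under 0.01, the soma share negative was 93.2% with a median of -0.194, germline calls fell to 137, and 54 events were called in both depletions. At a difference of at least 0.1, the medians were -0.212, -0.146 and 0.262 (soma, germline, sperm and oocyte), germline calls numbered 148, shared calls 60, and the sperm and oocyte share negative 3.13%. At 0.2, calls numbered 179, 41 and 248 with medians of -0.285, -0.226 and 0.314, shared calls 7, and the share negative 75.6% in the germline and 2.42% in the third comparison. Exons of 300 bases or more left 322 sperm and oocyte calls. With annotated exons alone, calls numbered 175, 88 and 230, shared calls 52, the soma and sperm and oocyte medians -0.186 and 0.236, and the germline share negative 92%. Where the upstream site is annotated, the share negative was 80% of 15 distant germline pairs and 0% of 187 adjacent pairs in the third comparison. Counts fall by construction where fewer events are kept; for the medians and shares the cause was not tested. Depth is unknown, so events not called may be too thinly covered to pass.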

Other observations

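A column of the authors' deposited splicing table names events as oocyte or sperm enriched. Among the 756 events, 279 carried the oocyte wording, and for 278 of them the sign of the sperm and oocyte difference was opposite to that of the called depletion, the other having soma and germline calls of unlike sign. For the 8 with the sperm wording the signs were the same. The sperm and oocyte difference itself was positive for 271 and negative for 8 of the first kind, and positive for 3 and negative for 5 of the second. The wording thus followed the relation between the 2 comparisons rather than the sign of 1 of them. Over all 3096 listed events, 611 of 614 with the oocyte wording had opposite signs and 52 of 56 with the sperm wording had equal signs.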
